A study of Mus musculus with 2 samples.

Results

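The genes of Wnt signalling described here were 55 in number and were chosen by gene symbol: 15 Wnt ligands and the ligand acyltransferase Porcn, 15 receptors and co-receptors, 13 inhibitors and 11 cytoplasmic and nuclear effectors. Of these, 54 had at least 1 probe set named for them, out of 18194 genes measured, and 49 were above the background floor on at least 1 array. The study compared the bulge, a niche of hair follicle stem cells in the outer root sheath, with the structure labelled hairshaft. Both came from C57Bl6 mice aged 21 days, with no treatment or genetic change given in the labels, and were cut by laser from frozen, eosin-stained skin sections. There was 1 array for each structure, made from 30 ng of amplified total RNA, so replicate error is unknown and no test was possible. How many mice were used, their sex and the skin region are not given in the labels. In bulk material of this kind fewer cells of a type and less RNA per cell cannot be told apart.

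Wnt proteins are secreted lipid-modified ligands. They bind Frizzled receptors together with the co-receptors Lrp5 and Lrp6, which recruits Dishevelled and stops a destruction complex of Axin, Apc and Gsk3b from breaking down beta-catenin; beta-catenin then acts with TCF/LEF factors on target genes. Secreted inhibitors either capture the ligand (the Sfrp family, Wif1), remove its lipid (Notum) or block the co-receptors (Dkk1, Dkk2). In skin the pathway is known to start hair placodes, to activate follicle stem cells at the onset of growth and to direct hair shaft differentiation.

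The receptors and the secreted inhibitors held most of the members at least 2-fold apart, and these were higher in the bulge sample with their brightest probe set. Several of them were not firm. Lrp6, Notum and Dkk3 were at 2.01-fold, 2.05-fold and 2.09-fold. A second probe set of Lrp6 went the other way, and Fzd3 rests on 1 probe set. With the mean of probe sets, 3 receptors were higher by 2-fold or more in the bulge sample. Among 49 members above the floor, 9 were higher by 2-fold or more in the bulge sample (Fzd1, Fzd3, Fzd4, Fzd7, Lrp6, Dkk2, Dkk3, Wif1 and Notum), against 11.4% of all 13329 genes above the floor. At least 2-fold higher in the hairshaft sample were 3 members (Wnt3, Wnt7b and Nkd2), against 4.91% of all genes (16.4% in either direction). As shares of the members these counts came to 18.4% for the bulge sample and 6.12% for the hairshaft sample. The first lies somewhat above the share of all genes but rests on few genes, and the second lies near it. The other 37 members were under 2-fold apart, and the median difference over the members was 0.03 (bulge minus hairshaft, log2), beside 0.00 over all genes above the floor. Of the 15 receptors, 5 were higher by 2-fold or more in the bulge sample and none in the hairshaft sample, while of the 14 ligand genes above the floor (Porcn included) none was past this limit in the bulge sample and 2 were in the hairshaft sample. The inhibitors had 4 of 12 higher in the bulge sample and 1 in the hairshaft sample, and all 8 effectors above the floor were under 2-fold apart. All values are log2 GCRMA values, and the floor of 2.68 on each array is the 95th percentile of 80 odorant and pheromone receptor probe sets (olfactory and vomeronasal), genes known mainly from sensory epithelia. GCRMA corrects each probe for background by its sequence, normalizes the arrays and summarises the probes of a set, and levels are not compared between genes.

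**Figure D1:**
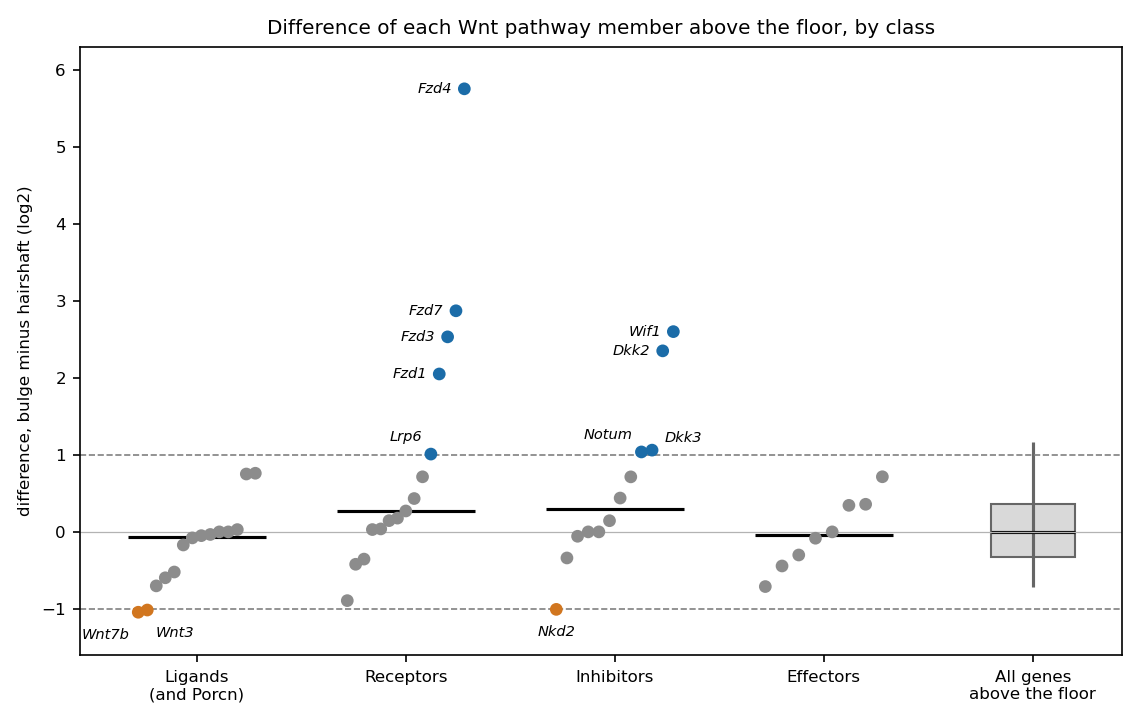
Difference of each Wnt pathway member above the floor (vertical axis, log2 of bulge minus hairshaft), sorted within its class, with members at least 2-fold apart named. Black bars are class medians, the dashed lines mark 2-fold, and the box at the right gives the 25th to 75th percentile of all genes above the floor with a line to the 10th and 90th. The 5 named receptors lie between 1.01 and 5.76, and no effector passes either dashed line.

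The labels were set against marker genes first. Of 8 bulge stem cell markers, 7 were higher by 2-fold or more in the bulge sample (median difference 2.60). Of 8 hair shaft keratins, 5 were higher by 2-fold or more in the bulge sample and none in the hairshaft sample, where 4 of them were at or below the floor and the highest value was 3.57. The hairshaft sample is therefore called by its label only. Of 8 inner root sheath genes, 6 were also higher by 2-fold or more in the bulge sample. On both arrays the 8 basal keratinocyte genes were between 8.60 and 14.40. Of these, 6 were higher in the hairshaft sample, 1 of them by 2-fold or more (Itga6, 2.15-fold), and none was higher by 2-fold or more in the bulge sample. Of 7 fibroblast genes, 1 was higher by 2-fold or more in the bulge sample and 3 in the hairshaft sample, and all 5 dermal papilla genes above the floor were under 2-fold apart. Markers of other tissues differed more: all 8 skeletal muscle genes, all 7 adipocyte genes measured and all 8 endothelial genes were higher by 2-fold or more in the bulge sample. The summed level of each list (log2 of the sum on the linear scale) was 17.21 in the bulge sample and 6.20 in the hairshaft sample for muscle, 15.77 in the bulge sample and 6.74 in the hairshaft sample for adipocytes, and 9.86 in the bulge sample and 6.80 in the hairshaft sample for endothelium. In the hairshaft sample, 2 of the muscle genes (Tnnc2 and Myl1), 4 of the adipocyte genes (Adipoq, Cidec, Lep and Pparg) and 3 of the endothelial genes (Pecam1, Cdh5 and Kdr) were at or below the floor. Frizzled receptors and secreted Wnt inhibitors are known to be made in those tissues as well, and the part of these cells in the differences below was not tested.

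Fzd4, the receptor known for norrin signalling in blood vessels, had the largest difference of the members. It was 8.59 in the bulge sample and 2.83 in the hairshaft sample, just over the floor, which is a 54.1-fold difference that ranked 105 among 13329 genes in the direction of the bulge. Its other probe sets had 7.06 and 4.60 in the bulge sample, against 2.73 and 2.72 in the hairshaft sample, so all 3 were higher by 2-fold or more in the bulge sample, by factors from 3.69 to 54.1. With the floor at the 99th percentile of those receptors the log2 difference was 4.38 in place of 5.76. Fzd7, a receptor for several Wnt ligands, was 8.58 in the bulge sample and 5.70 in the hairshaft sample, a 7.32-fold difference, although its dim second probe set was 3.35 in the bulge sample and 3.34 in the hairshaft sample, and the mean of both gave a log2 difference of 1.44. Fzd1 was 10.41 in the bulge sample and 8.36 in the hairshaft sample (4.15-fold), and its other probe set, at 6.70 in the bulge sample and 4.43 in the hairshaft sample, gave 4.81-fold. These 3 receptors stayed higher by 2-fold or more in the bulge sample under all 7 other processing settings tried, as did the inhibitor Dkk2. Some of these settings could not change the values. Fzd1, Fzd7 and Dkk2 had the same difference under both floor settings and with plain probe sets (those with no letter before _at). The same held for Fzd4 without a floor and with plain probe sets. Dkk2, with 1 probe set, was also unchanged by the mean of probe sets.

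The 250 bases before the annotated start of these 4 genes are shown because they are the members that had a value and held at 2-fold under each of those settings. Wif1 had no plain probe set and so no value under that setting, but held at 2-fold under the others. The sequences are from RefSeq (GRCm38.p6) and lie at chr5:4758217-4758466 on the minus strand for Fzd1, chr7:89404116-89404365 on the plus strand for Fzd4, chr1:59481897-59482146 on the plus strand for Fzd7 and chr3:132085042-132085291 on the plus strand for Dkk2. They are written 5′ to 3′ on the strand of the gene, and capitals mark CTTTGA or CTTTGT, the core to which TCF/LEF factors are known to bind, on either strand (TCAAAG or ACAAAG when read on the other).
Fzd4: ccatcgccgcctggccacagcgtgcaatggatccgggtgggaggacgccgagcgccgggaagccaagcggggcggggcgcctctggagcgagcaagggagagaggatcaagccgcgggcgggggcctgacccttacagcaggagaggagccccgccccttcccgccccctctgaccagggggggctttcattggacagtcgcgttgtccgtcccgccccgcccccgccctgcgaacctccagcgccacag
Fzd7: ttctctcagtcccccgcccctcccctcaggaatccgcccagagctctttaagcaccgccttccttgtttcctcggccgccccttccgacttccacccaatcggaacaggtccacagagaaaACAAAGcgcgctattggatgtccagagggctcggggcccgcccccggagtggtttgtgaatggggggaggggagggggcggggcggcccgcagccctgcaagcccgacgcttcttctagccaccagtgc
Fzd1: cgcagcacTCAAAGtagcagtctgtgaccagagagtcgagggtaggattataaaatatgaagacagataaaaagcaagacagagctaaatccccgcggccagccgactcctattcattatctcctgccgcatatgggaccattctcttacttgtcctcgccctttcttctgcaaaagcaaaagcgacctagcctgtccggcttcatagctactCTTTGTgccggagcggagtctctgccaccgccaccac
Dkk2: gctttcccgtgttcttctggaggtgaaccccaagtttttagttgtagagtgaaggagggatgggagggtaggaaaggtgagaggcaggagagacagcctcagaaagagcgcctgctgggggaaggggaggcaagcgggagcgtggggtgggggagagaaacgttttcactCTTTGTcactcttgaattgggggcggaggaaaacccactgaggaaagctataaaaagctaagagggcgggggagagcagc
The window of Fzd1 held 2 matches, those of Fzd7 and Dkk2 1 each and that of Fzd4 none. Such a match was present in 27.6% of all 32851 promoter windows of this length and in 11 of the 48 windows of the 38 members that had one (22.9%). A match describes letters and is not evidence of binding. Windows were also found for Wif1, Wnt3 and Nkd2 and held no match.

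The remaining receptors were less uniform. Fzd3, which acts in planar polarity, was 7.14 in the bulge sample and 4.61 in the hairshaft sample with its brightest probe set (5.79-fold). Its other 5 probe sets were all below 3.6 on both arrays, 4 of them with the same value on each, so the difference rests on 1 probe set and came to 0.41 (log2) with the mean of all. Lrp6, the co-receptor for beta-catenin signalling, was 8.66 in the bulge sample and 7.65 in the hairshaft sample, 2.01-fold higher in the bulge sample. Its second probe set was 4.62 in the bulge sample and 5.74 in the hairshaft sample, 2.17-fold higher in the hairshaft sample, and with the mean of both the difference was -0.055, so Lrp6 has no settled direction. Lrp5 was the receptor with the largest difference towards the hairshaft, at 3.54 in the bulge sample and 4.43 in the hairshaft sample (1.86-fold). This dim gene differed by -0.22 with the 99th percentile floor. Fzd6, the Frizzled that orients hairs in mouse skin, was 9.35 in the bulge sample and 9.31 in the hairshaft sample, while its second probe set was 8.04 in the bulge sample and 7.38 in the hairshaft sample, 1.58-fold higher in the bulge sample. Fzd2 was higher in the bulge sample with all 3 of its probe sets, by 1.44-fold to 1.66-fold.

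Fzd5 was 7.07 in the bulge sample and 6.89 in the hairshaft sample, and Fzd8 was 5.85 in the bulge sample and 5.82 in the hairshaft sample. The dim Fzd9 was 3.42 in the bulge sample and 3.15 in the hairshaft sample. These receptors had close values in both samples. Of the 10 Frizzled genes, only Fzd10 was higher in the hairshaft sample, at 6.66 in the bulge sample and 7.01 in the hairshaft sample. The tyrosine kinase-like receptors Ror1, Ror2 and Ryk, which carry Wnt signals that do not use beta-catenin, were under 2-fold apart. Ror1 was 5.70 in the bulge sample and 5.27 in the hairshaft sample, a difference of 0.43 that was -0.20 with the mean of its probe sets. Ror2 was 4.19 in the bulge sample and 4.05 in the hairshaft sample, and Ryk was 8.46 in the bulge sample and 8.88 in the hairshaft sample. Over all 15 receptors the median difference was 0.27, with 12 higher in the bulge sample and 3 higher in the hairshaft sample. Of all 13329 genes above the floor, 5980 were higher in the bulge sample and 6205 in the hairshaft sample.

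**Figure D2:**
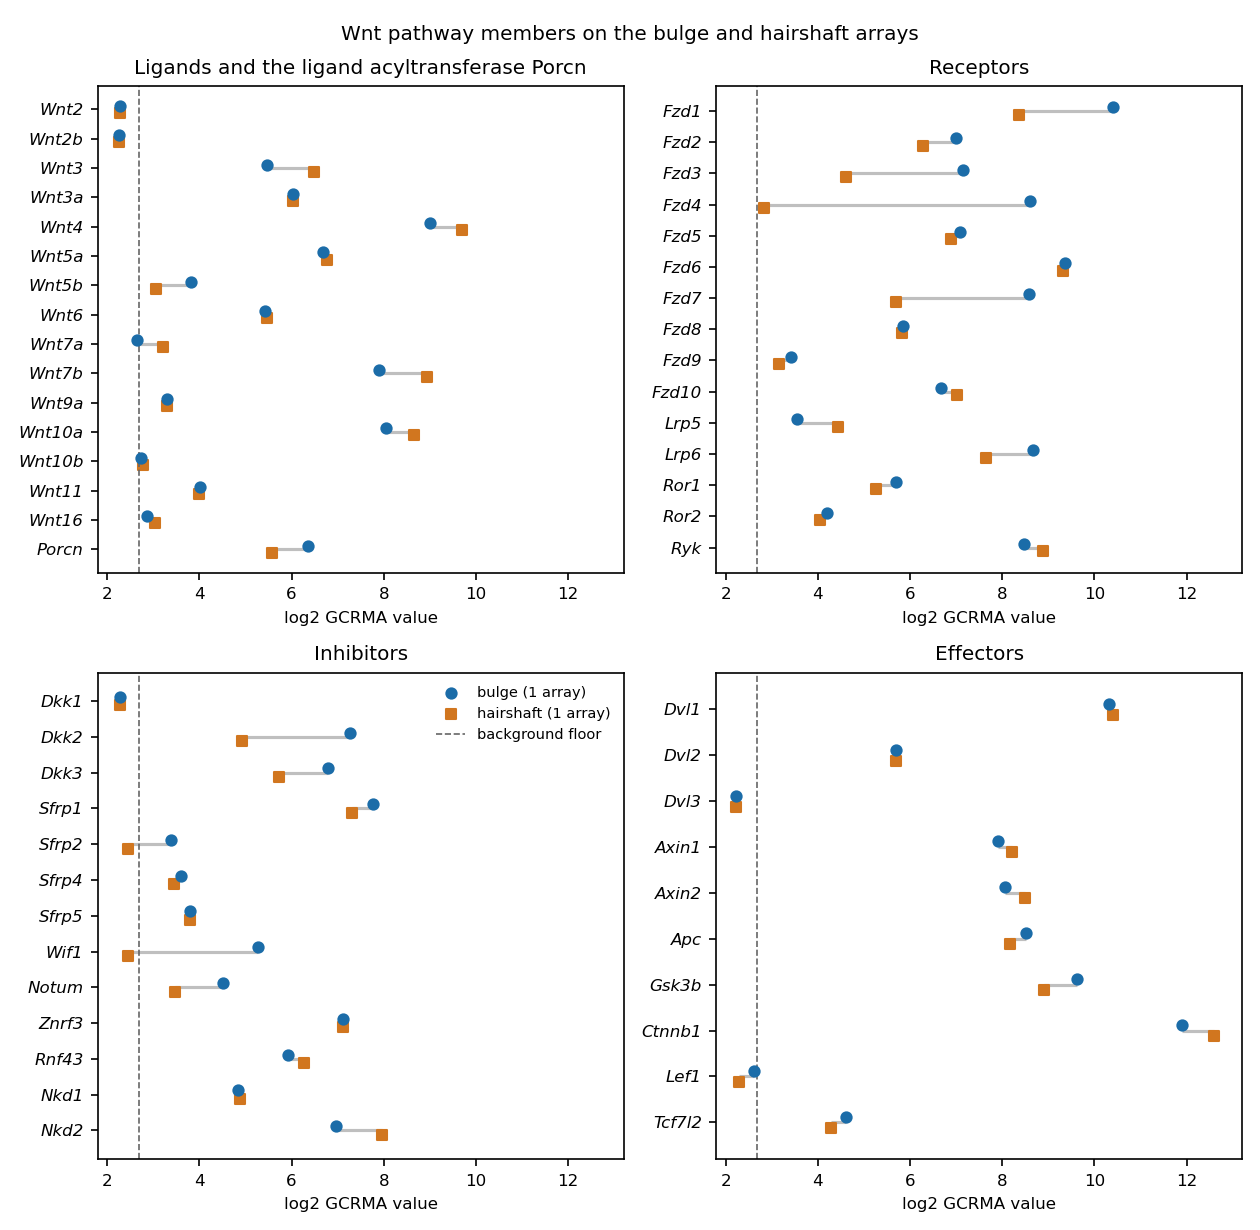
Log2 GCRMA values of the 54 measured Wnt pathway members on the bulge array (blue circles) and the hairshaft array (orange squares), 1 array each, in 4 panels by class. The dashed line is the background floor of 2.68; the longest grey line joins the values of Fzd4, 8.59 in the bulge sample and 2.83 in the hairshaft sample.

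With their brightest probe sets, 7 of the 8 secreted inhibitors above the floor were higher in the bulge sample (median difference of all 8, 0.88). Beside this, 5980 of all 13329 genes above the floor were higher in the bulge sample and 6205 in the hairshaft sample. The other secreted inhibitor, Sfrp5, had the same value of 3.80 on both arrays. Its second probe set was 3.61 in the bulge sample and 3.48 in the hairshaft sample. Dkk2, which binds the Lrp co-receptors, was 7.27 in the bulge sample and 4.92 in the hairshaft sample with its only probe set, a 5.11-fold difference that ranked 594. Wif1, which captures Wnt ligands, was 5.28 in the bulge sample and 2.45 in the hairshaft sample, below the floor there, so it was at least 6.07-fold higher in the bulge sample. With the 99th percentile floor the log2 difference at this bound was 1.07 in place of 2.60, and it was 1.29 with 16 added to the linear values as an offset. Dkk3, a divergent member of the Dkk family, was 6.78 in the bulge sample and 5.72 in the hairshaft sample (2.09-fold), and its second probe set gave 2.30-fold; it was under 2-fold with that offset and with quantile normalization. Notum, the enzyme that removes the lipid from Wnt, was 4.50 in the bulge sample and 3.47 in the hairshaft sample (2.05-fold). That value is close to the floor, and the log2 difference of 1.04 became 0.29 with the 99th percentile floor; it was also under 2-fold with the offset, a loess trend removed or quantile normalization.

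Among the Sfrp family, whose members bind Wnt ligands outside the cell, none reached 2-fold. Sfrp1 was 7.76 in the bulge sample and 7.32 in the hairshaft sample with its brightest probe set, but 3 of its other 4 probe sets were higher in the hairshaft sample, by up to 1.54-fold, and the fourth was equal. Sfrp2 was 3.39 in the bulge sample and at or below the floor in the hairshaft sample, at least 1.64-fold higher in the bulge sample, and Sfrp4 was 3.59 in the bulge sample and 3.45 in the hairshaft sample. Dkk1, a strong blocker of Lrp5 and Lrp6, was not above the floor on either array with either of its probe sets.

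The inhibitors that act in the cell or at its membrane did not share this direction. Nkd2, a feedback inhibitor that binds Dishevelled, was 6.96 in the bulge sample and 7.97 in the hairshaft sample (2.01-fold higher in the hairshaft sample). Of its other 3 probe sets, 1 was 2.57-fold and 1 was 1.73-fold higher in the hairshaft sample and the last was equal. The gene did not reach 2-fold with the offset, a loess trend removed or its probe sets averaged. Its relative Nkd1 was 4.83 in the bulge sample and 4.88 in the hairshaft sample. Znrf3 and Rnf43, ubiquitin ligases that remove Frizzled receptors from the surface, were under 2-fold apart. Znrf3 was listed at 7.10 on both arrays, and Rnf43 was 5.93 in the bulge sample and 6.27 in the hairshaft sample. None of these 4 genes was higher in the bulge sample.

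Ligand differences lay between -1.04 and 0.76 (log2), and most were higher in the hairshaft sample. Of the 13 Wnt ligands above the floor, 9 were higher in the hairshaft sample, 2 in the bulge sample (Wnt5b and Wnt11) and 2 had the same value on both arrays (Wnt3a and Wnt9a). Among all 13329 genes above the floor, 6205 were higher in the hairshaft sample and 5980 in the bulge sample. Wnt7b was 7.89 in the bulge sample and 8.94 in the hairshaft sample, 2.06-fold higher in the hairshaft sample, and its second probe set, at 6.75 in the bulge sample and 7.66 in the hairshaft sample, gave 1.88-fold. Wnt3 was 5.46 in the bulge sample and 6.48 in the hairshaft sample, 2.02-fold higher in the hairshaft sample with its only probe set. Wnt4 was 9.00 in the bulge sample and 9.71 in the hairshaft sample (1.63-fold), and Wnt10a, whose loss disturbs hair, teeth and sweat glands, was 8.05 in the bulge sample and 8.65 in the hairshaft sample (1.51-fold). These 4 are known as ligands of epidermal and follicle keratinocytes. All 8 markers of differentiated epidermis were higher in the hairshaft sample too, 4 of them at least 2-fold (Ivl, Casp14, Cdsn and Klk8), with a median difference of -0.98 and a summed level of 16.61 in the bulge sample and 16.85 in the hairshaft sample. The 8 basal keratinocyte genes had a median difference of -0.15, with 6 higher in the hairshaft sample and 2 in the bulge sample. The part of these cells in the ligand differences was not tested.

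Wnt7b and Wnt3 stood just past the 2-fold limit, as did Lrp6, Notum and Nkd2. Both ligands were under it with the offset of 16, and Wnt7b also with the mean of its probe sets and with a loess trend removed. The next largest differences were Lrp5 at -0.89, Porcn at 0.76 and Wnt5b at 0.75. Close behind were Gsk3b at 0.72, Fzd2 at 0.72, Sfrp2 at 0.71 (a bound), Ctnnb1 at -0.71 and Wnt4 at -0.70. Porcn, which attaches the lipid that ligands need for secretion, was 6.34 in the bulge sample and 5.58 in the hairshaft sample. Wnt5a, the main ligand of signalling without beta-catenin, was 6.68 in the bulge sample and 6.76 in the hairshaft sample with its brightest probe set, while another of its 4 probe sets was 4.74 in the bulge sample and 7.30 in the hairshaft sample, 5.89-fold higher in the hairshaft sample. The mean of its probe sets gave a difference of -0.78. The remaining ligands were Wnt6 (5.43 in the bulge sample, 5.46 in the hairshaft sample), Wnt11 (4.01 in the bulge sample, 3.98 in the hairshaft sample), Wnt5b (3.82 in the bulge sample, 3.07 in the hairshaft sample), Wnt16 (2.86 in the bulge sample, 3.03 in the hairshaft sample) and Wnt10b (2.73 in the bulge sample, 2.78 in the hairshaft sample). Wnt5b was dim, and its second probe set had close values, 3.04 in the bulge sample and 3.05 in the hairshaft sample. Wnt3a was listed at 6.04 and Wnt9a at 3.30 on both arrays. Wnt7a was above the floor in the hairshaft sample alone, at 3.20, and Wnt2 and Wnt2b were not above it on either array.

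The intracellular core of the pathway was under 2-fold apart throughout, at the level of each gene's brightest probe set. Beta-catenin (Ctnnb1) was 11.89 in the bulge sample and 12.60 in the hairshaft sample, 1.64-fold higher in the hairshaft sample, and its 3 probe sets ran the same way with differences from -0.71 to -0.50. Axin2, a scaffold of the destruction complex that is also a general target of the pathway, was 8.05 in the bulge sample and 8.50 in the hairshaft sample (1.36-fold), whereas its dim second probe set was higher in the bulge sample by 1.27-fold. Axin1 was 7.91 in the bulge sample and 8.21 in the hairshaft sample, and Apc was 8.52 in the bulge sample and 8.16 in the hairshaft sample. Of the Dishevelled adaptors, Dvl1 was 10.32 in the bulge sample and 10.41 in the hairshaft sample, Dvl2 was listed at 5.68 on both arrays, and Dvl3 was not above the floor on either array.

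Gsk3b, the kinase that marks beta-catenin for breakdown, had probe sets that differed in both directions. Its brightest probe set was 9.62 in the bulge sample and 8.90 in the hairshaft sample, 1.64-fold higher in the bulge sample. The other 5 were all higher in the hairshaft sample, 2 of them by 4.20-fold and 4.98-fold, so with the mean of all probe sets the difference was -0.74 in place of 0.72. Tcf7l2, a TCF factor, was 4.62 in the bulge sample and 4.27 in the hairshaft sample, and another of its probe sets was 2.69-fold higher in the bulge sample. Lef1, the factor of the hair shaft precursors, had 2 probe sets and was not above the floor with either, at 2.62 and 2.35 in the bulge sample and 2.29 and 2.35 in the hairshaft sample. Tcf7 was not analysed here, since no probe set was named for it.

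**Figure D3:**
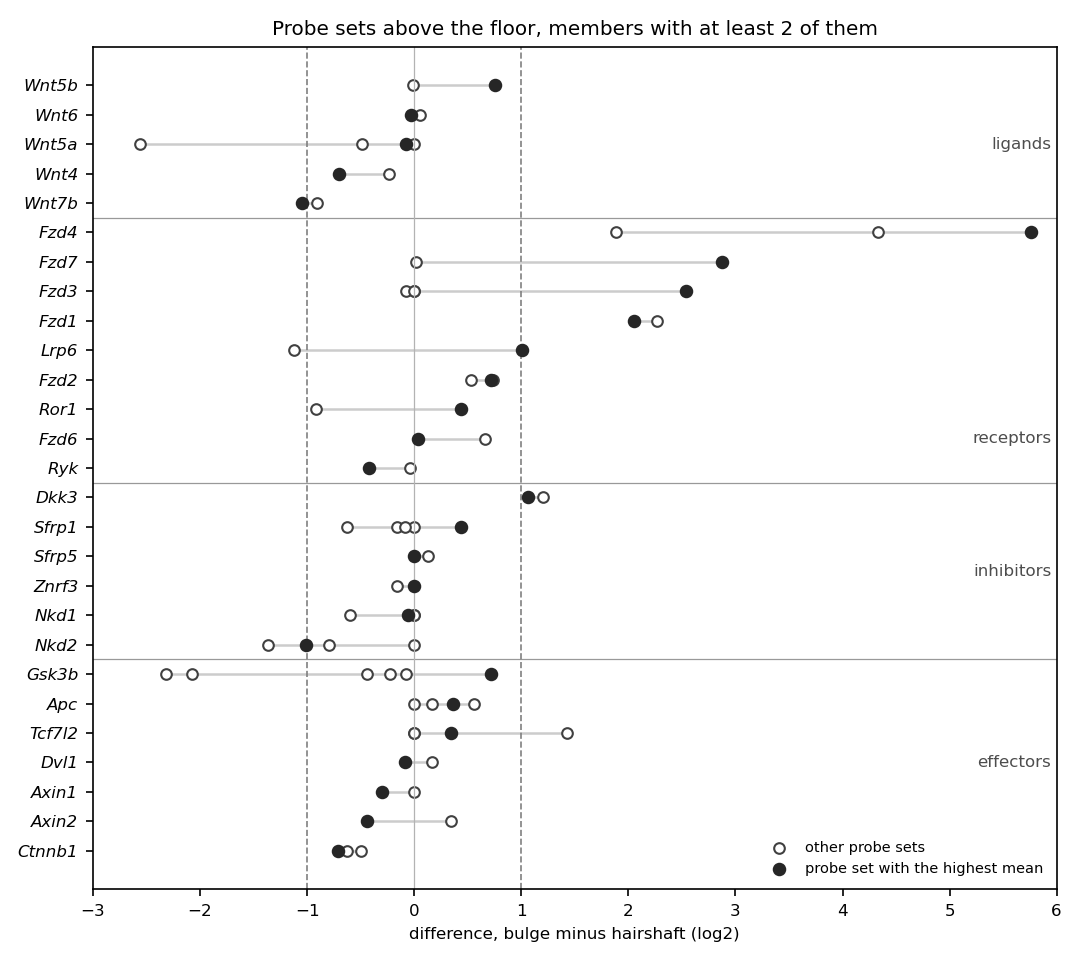
Difference of every probe set above the floor (horizontal axis, log2 of bulge minus hairshaft) for the 27 members with at least 2 such probe sets, grouped by class. Filled points are the probe set that stands for the gene and open points the others; the points of Fzd4, Fzd1 and Dkk3 all lie past the 2-fold line, and those of Lrp6 and Gsk3b lie on both sides of 0.

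Probe sets of the same gene were the only repeat measurement. The 54 members had 118 probe sets, of which 98 were above the floor. Of these 98, 14 were higher by 2-fold or more in the bulge sample and 8 in the hairshaft sample. The shares over all 24173 named probe sets above the floor were 9.87% and 6.75% (16.6% in either direction). Both shares of the members lie somewhat above these, and several of the probe sets belong to the same gene. Of the 12 members at least 2-fold apart, 8 had several probe sets above the floor, and for 3 of these (Fzd1, Fzd4 and Dkk3) every one passed 2-fold in the same direction. Another 4 (Wnt3, Dkk2, Wif1 and Notum) had only 1 probe set in all. Equal values also need care: 5 members above the floor (Wnt3a, Wnt9a, Sfrp5, Znrf3 and Dvl2) had exactly the same value on both arrays, within 1e-06, as did 8.64% of all genes above the floor and 74 of the 80 olfactory and vomeronasal receptor probe sets. Such a tie carries no measured difference, and it does not show equal expression.

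Other genes of the pathway, in a list of 98, were mostly under 2-fold apart. Of 85 above the floor, 12 were higher by 2-fold or more in the bulge sample and 2 in the hairshaft sample, with a median difference of 0.06. These are shares of 14.1% for the bulge sample and 2.35% for the hairshaft sample, against 11.4% and 4.91% of all genes. Without the genes that also stand in a marker list (among them Lgr5, Tcf7l1 and Nfatc1), 9 of 80 were higher by 2-fold or more in the bulge sample, which is 11.2% and near the share of all genes. Of 8 surface partners of the receptors, 5 were higher by 2-fold or more in the bulge sample and none in the hairshaft sample. They were the R-spondin receptors Lgr4 (9.71 in the bulge sample, 8.24 in the hairshaft sample) and Lgr5, the planar polarity receptor Ptk7 (7.56 in the bulge sample, 5.29 in the hairshaft sample) and the glypicans Gpc3 and Gpc4, heparan sulphate proteoglycans, at 3.69-fold and 3.55-fold; Gpc3 differed by 1.19 on the log2 scale with the offset, in place of 1.88. The stem cell marker Lgr5 was 6.15 in the bulge sample and 2.75 in the hairshaft sample, and its log2 difference of 3.41 became 1.94 with the 99th percentile floor and 1.52 with the mean of its probe sets. With the mean of its probe sets Lgr4 differed by 0.74, under 2-fold.

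Outside the cell, Tpbg, a membrane protein that dampens beta-catenin signalling, was 2.37-fold higher in the bulge sample (0.36 on the log2 scale with the mean of its probe sets), and Cpz, a carboxypeptidase that binds Wnt, was 5.36 in the bulge sample and 7.77 in the hairshaft sample, 5.33-fold higher in the hairshaft sample. Wls, which carries ligands to the cell surface, was 10.57 in the bulge sample and 10.53 in the hairshaft sample. In the nucleus, Tcf7l1, the TCF repressor of follicle stem cells, was 2.05-fold higher in the bulge sample (0.78 on the log2 scale with the offset and 0.88 after quantile normalization, both under 2-fold) and Sox17, which is also an endothelial factor, at least 9.79-fold (1.76 on the log2 scale at the higher floor of the 99th percentile). All 19 other cytoplasmic components above the floor were under 2-fold apart. In the polarity and calcium branch, 3 of 20 genes were higher by 2-fold or more in the bulge sample, namely the kinases Camk2b and Camk2g, which skeletal muscle also makes, at 3.29-fold and 2.92-fold, and the stem cell factor Nfatc1, at 2.19-fold. That share of 15% lies near the 11.4% of all genes. Nfatc1 did not reach 2-fold with its probe sets averaged (0.85 on the log2 scale), and Camk2b differed by 1.02 with the offset in place of 1.72.

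Of 12 target genes, Fgf18, a growth factor of resting follicles, was 6.23 in the bulge sample and 2.71 in the hairshaft sample (11.5-fold higher in the bulge sample), and Ascl2 was 5.64 in the bulge sample and 7.29 in the hairshaft sample (3.14-fold higher in the hairshaft sample). With the 99th percentile floor the log2 difference of Fgf18 was 2.01 in place of 3.52. The other 10 targets were under 2-fold apart, among them the cell cycle gene Ccnd1 (9.00 in the bulge sample, 9.34 in the hairshaft sample) and the general target Sp5 (3.14 in the bulge sample, 3.22 in the hairshaft sample).

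**Figure D4:**
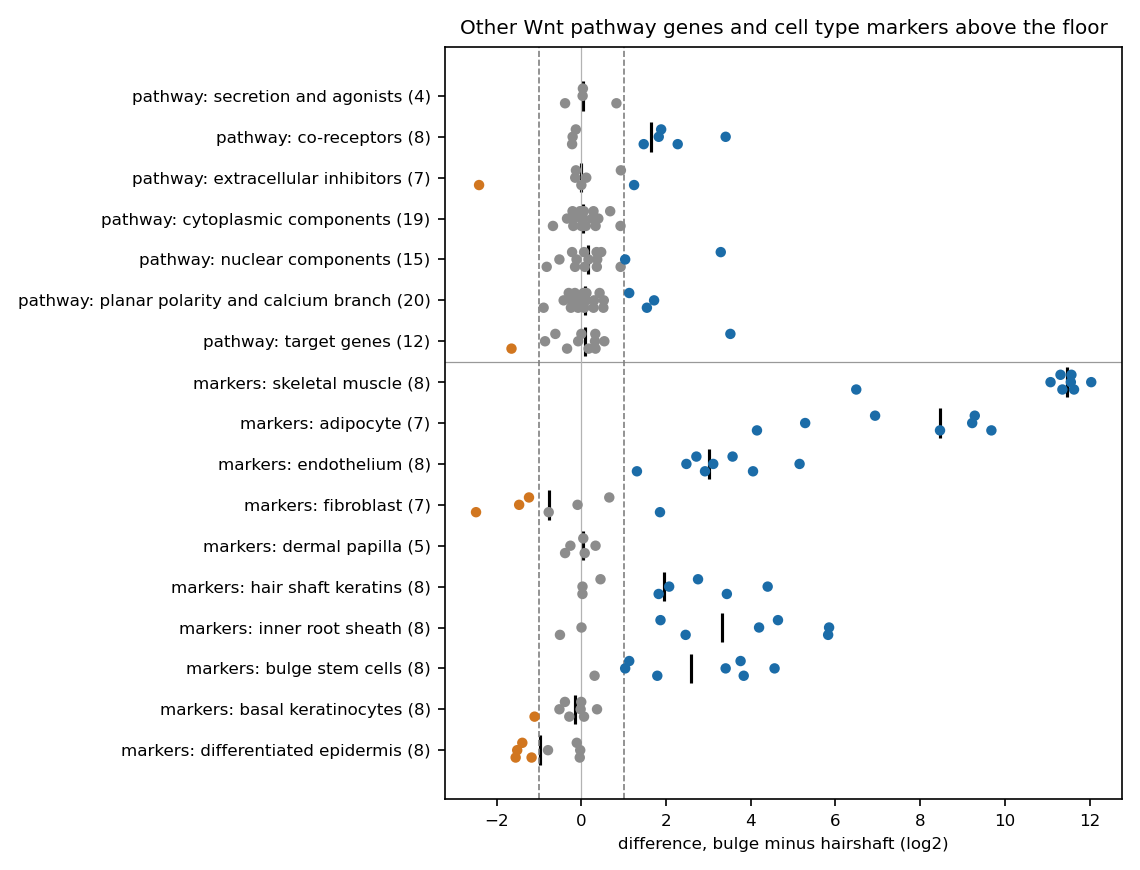
Differences (horizontal axis, log2 of bulge minus hairshaft) of the other Wnt pathway genes and of cell type markers above the floor, with the number of genes in brackets. Points are genes (blue, higher by 2-fold or more in the bulge sample; orange, in the hairshaft sample; grey, under 2-fold), black bars are medians and dashed lines mark 2-fold; the muscle markers lie between 6.49 and 12.04.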

How the data were processed

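Expression was measured on 1 array of 45101 probe sets for each structure. The authors deposited log2 values, 1 per probe set, made with GCRMA, per the submitters' processing notes, which corrects background from probe sequence and normalizes arrays to each other; the release and options of GCRMA were not stated there. Deposited values ran from 2.23 to 15.36, as log2 values do, and both columns are used (0 left out).

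Platform annotation named 34958 probe sets with 1 gene, 932 with several (none of them for a member) and 9211 not at all; 34754 symbols were brought up to date by Entrez identifier with RefSeq names of GRCm38.p6. The brightest probe set, by its mean over both arrays, stood for a gene. The floor was 2.68 on each array. A value at or below it was replaced by it, which makes a fold a lower bound, written "at least". Genes were counted at 2-fold. With 1 array for each structure, 0 degrees of freedom remain and no test was run, and the number of arrays limits precision. The procedure was tested on simulated data with large changes in bright genes, alike in every probe set of a gene and without ties. That test did not cover differences near 2-fold, changes in dim genes or probe sets that disagree.

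All 55 members are described or listed in the counts; of other pathway genes those at least 2-fold apart are named, and Wls, Ccnd1, Sp5 and the markers beside a count were named after their values were seen. Members and lists were chosen with earlier results of these data known. The counts and medians of the members and their classes, and the differences of the members and of the other pathway genes at least 2-fold apart, were recomputed under 7 alternatives where the gene still had a value, and under 1 more added after seeing the data. Marker lists and counts of other pathway genes were not. Values were computed in Python 3.11.15 with numpy 2.4.6 and pandas 2.3.3, loess trends with statsmodels 0.14.6 and figures with matplotlib 3.10.9.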

Additional observations from a re-analysis of the deposited data

How the results depend on the processing

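There were 7 alternatives: a floor at the 99th percentile (4.21 on both arrays), use of all genes without a floor, the mean of probe sets, plain probe sets only (those with no letter before _at), 16 added to linear values as an offset, a loess trend (span 0.3) taken off, and quantile normalization; leaving out genes tied on both arrays was added after seeing the data. Counts are of genes at least 2-fold apart. The count of members higher in the bulge ran from 6 to 9. The count higher in the hairshaft, 3 as reported, was 1 with the mean of probe sets, 0 with the offset and 1 with the loess trend removed. By class, the ligands higher in the hairshaft were 1 with the mean of probe sets, 0 with the offset and 1 with the loess trend removed. With plain probe sets they were 1 of the 10 ligand genes above the floor, since Wnt3 had no such probe set. The receptors higher in the bulge were 3 with the mean of probe sets, and 1 receptor, Lrp5, was higher in the hairshaft with quantile normalization. The inhibitors higher in the bulge were 2 with the offset and 2 with quantile normalization. With plain probe sets they were 2 of the 10 above the floor, since Wif1 and Notum had no such probe set. Inhibitors higher in the hairshaft were 0 with the mean of probe sets, 0 with the offset and 0 with the loess trend removed. With plain probe sets 1 effector, Tcf7l2, was higher in the bulge. The median difference stayed above 0 for receptors (0.09 to 0.43) and inhibitors (0.07 to 0.58) and below 0 for ligands (-0.34 to -0.04) under all 8 alternatives, and took either sign for effectors (-0.13 to 0.17) and for all members (-0.05 to 0.09). Lrp6 reversed with the mean of probe sets (-0.055). Of the 12 members at least 2-fold apart, 4 stayed 2-fold apart in the same direction under each of the 7, some of which could not change a given gene. Wif1 had no value with plain probe sets and stayed 2-fold apart under the rest. The causes were not tested beyond what each alternative changes by construction. No paired analysis was possible because each structure has 1 array; for the same reason no replicate could be left out. Dim genes, such as Notum, Wif1, Sfrp2 and Wnt7a, are limited by their closeness to the floor.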
